A study of Mus musculus with 16 samples.

Results

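Of 55617 H3K27Ac regions on chromosomes 1 to 19 of mouse liver, 475 were lost in inflamed Mdr2-/- liver and had not returned in the tumor nodules that arise in this model. Peaks that touched or overlapped in any of the 15 animals were joined into 1 region. The regions were chosen by their peak calls: a peak had to be listed in at least 4 of 5 WT livers, in at most 1 of 5 inflamed livers and in at most 1 of 5 hepatocellular carcinoma (HCC) nodules. These 475 regions made up 0.854% of all regions and covered 1.95 Mb of sequence. The choice used the presence of peaks in all 15 lists, so presence and absence in the 3 groups are given below as description and carry no test.

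Acetylation of lysine 27 on histone H3 is placed by the acetyltransferases CBP and p300 and removed by deacetylases, and it marks promoters and enhancers that are in use. In liver, enhancers carrying the mark lie around the genes that give hepatocytes their functions, such as bile acid, lipid and drug metabolism, and the pattern shifts when cells change state. Mdr2 (Abcb4) is the hepatocyte transporter that moves phosphatidylcholine into bile. Without it bile acids are not packed with phospholipid, the bile ducts and surrounding tissue are damaged, and chronic inflammation precedes tumors.

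Chromatin immunoprecipitation with sequencing was done on 15 animals, 5 for each of WT liver, inflamed Mdr2-/- liver and HCC nodules of Mdr2-/- liver. The WT strain is labelled FVB.129P2, whereas the methods of the study name FVB/NJ, and the mutant is labelled FVB.129P2-Abcb4tm1Bor/J, a germline null allele present in every cell. WT livers and nodules were taken at 14 to 19 months and inflamed livers at 7 to 8 months. All 15 animals, WT included, had received clodronate liposomes at 50 µg per g for 48 h, which deplete phagocytic macrophages. The comparison asks which acetylated elements of normal liver are missing during inflammation and whether the tumors have them again. The inflamed livers differed from WT in age as well as genotype, and both mutant groups differed from WT in colony. The parts of Mdr2 loss, age and colony in the peaks missing from inflamed liver cannot be told apart. For the nodules, which shared the age range of the WT livers, genotype, colony and tumor state still cannot be told apart. Nodules and inflamed livers differed in age as well as in tissue. Whether a peak lost in inflammation was regained therefore cannot be assigned to tumor or to age. The material was whole tissue, so fewer cells of one type and less acetylation per cell cannot be told apart either.

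The peak lists held 25867 to 29618 peaks per WT liver on chromosomes 1 to 19, 35188 to 40063 per inflamed liver and 26235 to 41863 per nodule. Read totals were not analysed here and the depth behind each list is unknown, so a missing peak means that none was listed at the peak caller's threshold, not that acetylation was absent. WT animal 134501 (15 peaks) and nodule 124711 (13 peaks) were the only 2 of the 15 with peaks on chromosome Y, and the sex of each animal was not given. Coordinates are those of the mouse build NCBI37/mm9. Genes, promoters and marker loci of liver cell types were not assigned to the regions, because the gene tables used here are of another build.

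Regions with a peak in at least 4 WT livers numbered 20174, and the inflamed livers had lost 1117 of them, or 2.01% of all 55617 regions. These 1117 parted into 475 that were not regained (42.5%), 522 with a peak in 2 or 3 nodules (46.7%) and 120 regained in at least 4 nodules (10.7%). With an animal left out, the limits in its group become at least 3 of 4 and at most 1 of 4. With the WT limit at 3 of 4, the number not regained became 940 without WT animal 130748 and 919 without WT animal 134501. With the nodule limit at 1 of 4, it became 741 without nodule 125278 and 713 without nodule 123390. The number regained became 235 without nodule 124711, 235 without 123206 and 208 without 125279, and, with the inflamed limit at 1 of 4, 193 without inflamed animal 148990. Without nodule 125278, 66.1% of the lost regions were not regained. Seen from the nodules alone, 960 regions were present in at least 4 WT livers and in at most 1 nodule (1.73% of all regions), and the 475 were 49.5% of those. The opposite pattern, at most 1 WT liver but at least 4 animals of each mutant group, was found at 1207 regions (2.17%). Gains in the inflamed livers taken alone outnumbered losses, with 6947 regions (12.5%) in at least 4 inflamed and at most 1 WT liver. In the nodules the gains were 1690 regions (3.04%) by the same limits. These counts moved with the length of the lists, which was greater in all 5 inflamed livers than in any WT liver. With every list cut to the best-scoring 25867 peaks, the inflamed livers had lost 2378 and gained 2837 regions, and the nodules had lost 1679 and gained 886, so that in the nodules losses then outnumbered gains. The number lost in inflammation and not regained became 1139. Both mutant comparisons use the same 5 WT livers, so they are not independent of each other.

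Of the WT livers, 3 had a peak at nearly all of the 475 regions, and so it was at the other lost regions. A peak was listed at 460 regions in WT animal 129296, at 470 in 130747 and at 459 in 129297. The numbers were 355 in 134501 and 278 in 130748. At the regions with a peak in 2 or 3 nodules 134501 and 130748 had a peak at 79.7% and 59.4%, and at the regained regions at 80.8% and 64.2%, with 96.4 to 100% in the other 3. All of the first 3 animals had a peak at 439 regions (92.4%), whereas 120 regions (25.3%) had none in 134501 and 197 (41.5%) had none in 130748. A peak in all 5 WT livers was present at 122 regions (25.7%), and the other 353 had exactly 4. Among those 353, the missing animal was 130748 in 55.8% and 134501 in 34.0%. Over all regions of the series with exactly 4 WT peaks the same shares were 69.5% and 16.9%, and at the other lost regions the share missing in 134501, the WT animal with chromosome Y peaks, was close to that of the 475: 30.4% of 349 with a peak in 2 or 3 nodules and 32.9% of 70 regained. No test was made of these shares.

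In the inflamed livers, no animal had a peak at 335 of the 475 regions (70.5%) and 1 animal had one at 140. The single peak was unevenly spread. Animal 148990 held 91 of the 140 (65.0%), while 148998 held 24, 149198 held 10, 148997 held 9 and 149199 held 6. Animal 148990 also had the shortest list of its group, with 35188 peaks. The part of list length or depth in this spread was not tested. Of its 91 regions, 32 (35.2%) had a peak in WT animal 130748, which had one at 58.5% of all 475.

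In the nodules, 184 regions (38.7%) had no peak in any animal and 291 (61.3%) had 1. Nodule 125278 held 149 of the 291 (51.2%), 123390 held 61, 125279 held 41, 124711 held 27 and 123206 held 13. Nodule 125279 had the longest list, with 41863 peaks, and 41 of the regions, against 149 for 125278 with 38547 peaks. All 27 regions with a peak in nodule 124711 also had a peak in WT animals 129296 and 130748, which had one at 96.8% and 58.5% of the 475. In 134501, 130747 and 129297 a peak was listed at 21, 25 and 24 of the 27.

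**Figure D1:**
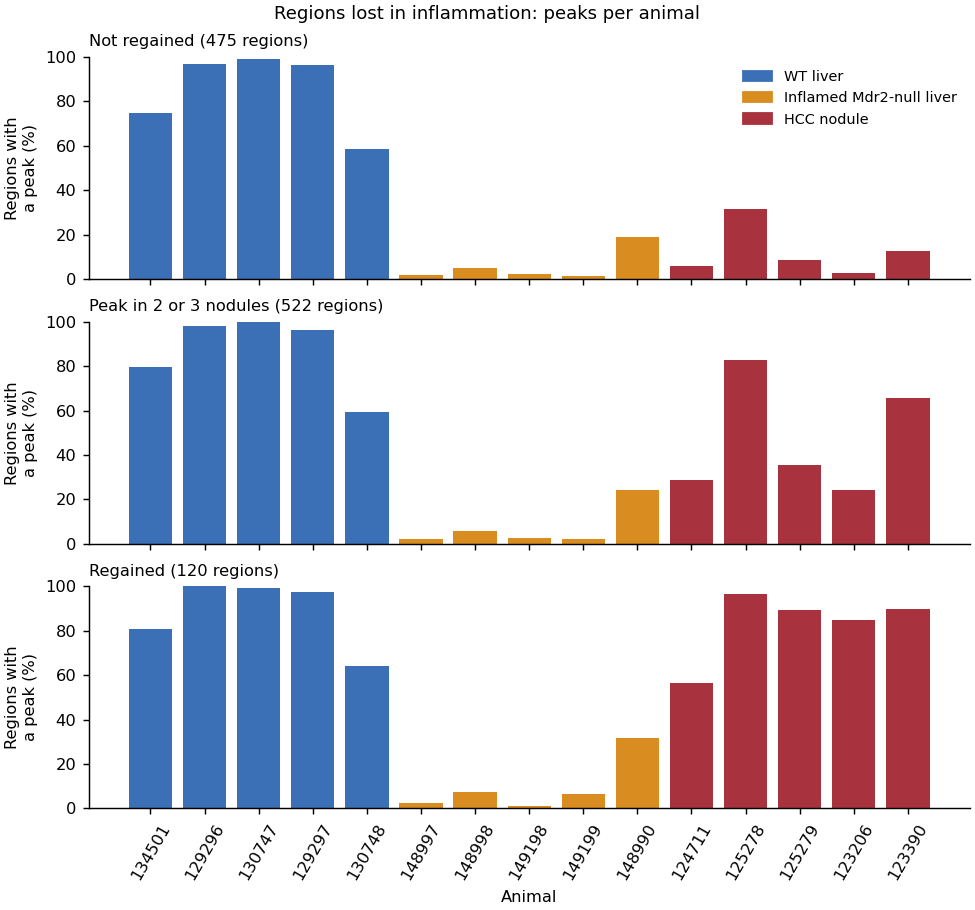
Percent of regions with an H3K27Ac peak in each of 15 animals (bars, coloured by group), for regions lost in inflammation that were not regained, that had a peak in 2 or 3 nodules, or that were regained. At the regions not regained, inflamed animal 148990 (19.2%) and nodule 125278 (31.4%) stand above the other animals of their groups, and WT animals 134501 and 130748 stand below the other WT livers.

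The strictest pattern, 5 WT livers and no mutant animal, was met by 33 regions. The most frequent pattern was 4 WT livers, no inflamed liver and 1 nodule, with 145 regions, followed by 4 WT livers and no mutant animal at all, with 108. There were 63 regions with 4 WT livers and 1 animal of each mutant group, 49 with 5 WT livers and 1 nodule only, 37 with 4 WT livers and 1 inflamed liver only, 34 with 5 WT livers and 1 animal of each mutant group, and 6 with 5 WT livers and 1 inflamed liver only.

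Where a mutant animal did have a peak in a region, touching the WT peaks followed from the way peaks were joined. At all 140 regions with an inflamed peak it covered bases shared by the WT peaks, and at 13 of the 291 regions with a nodule peak it did not. At 4 of the 475 regions the WT peaks shared no base, so any mutant peak there was bound to count as a miss. The lone inflamed peaks were low in their own lists, with a median score percentile of 10.3 and a median length of 1920 bp. The percentile is the rank of a peak's score within its own list, with 100 for the highest score and tied scores sharing their mean rank. Between 9.52% and 24.5% of each list shared the score 3100, so that among the strongest peaks the percentile tells little. The lone nodule peaks had a median percentile of 23.6 and a median length of 2288 bp. Within WT livers the peaks lay on top of each other: at 471 of the 475 regions some bases were under a peak in every WT animal that had one, with a median of 2017 bp or 58.6% of the region.

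The regions lost and not regained were low-scoring elements in WT liver. The median percentile of the peaks at these regions was 21.4 in WT animal 134501, 30.3 in 129296, 32.1 in 130747, 26.0 in 129297 and 26.0 in 130748. Taking the median over WT animals for each region, the 475 had a median percentile of 27.8, with a range of 2.85 to 91.0, against 59.3 for all 20174 regions with at least 4 WT peaks and 66.3 for the 16158 kept in at least 4 animals of every group.

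Loss in inflammation became rarer with rising WT score. Of 1556 regions in the lowest bin, percentiles 0 to 20, the inflamed livers had lost 303 (19.5%). The share was 12.7% of 4058 at 20 to 40, 5.07% of 4651 at 40 to 60, 1.16% of 4823 at 60 to 80 and 0.138% of 5086 at 80 to 100. The number not regained in the same bins was 151, 209, 91, 21 and 3. Once lost, the share not regained moved much less with WT score, at 49.8%, 40.6%, 38.6%, 37.5% and 42.9%, the last of these over only 7 lost regions. Because a weak peak passes a caller's threshold in some animals and not in others, the part of the threshold in these losses was not tested.

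**Figure D2:**
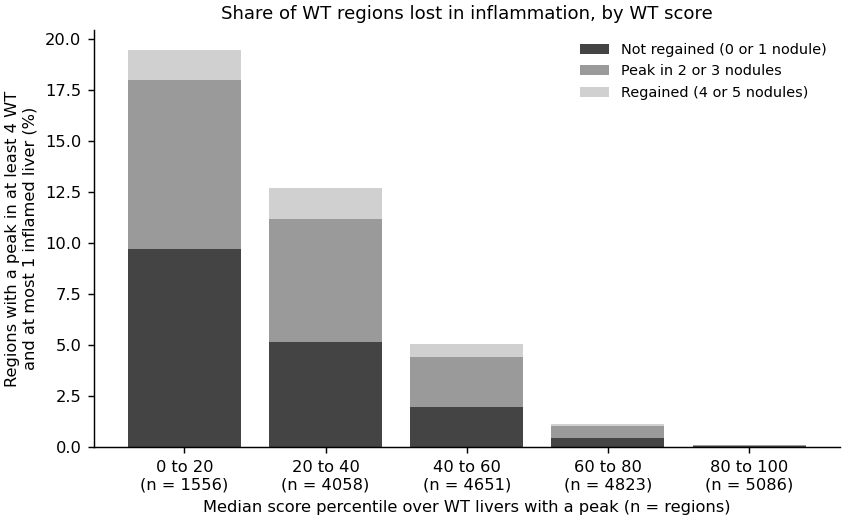
Percent of regions with at least 4 WT peaks that were lost in inflammation (bar height), by the median WT score percentile, with shading for the number of nodules that had a peak. The bars fall from 19.5% in the lowest bin to 0.138% in the highest, and the darkest part, not regained, holds between 37.5% and 49.8% of each bar.

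The regions not regained were also slightly weaker in WT liver than the regained ones. In each of the 5 WT livers the median percentile was lower at the regions not regained than at the 120 regained, with differences of -8.50 to -1.98 percentile points and a mean of -4.76 ± 2.56 (SD, n = 5). The length under peaks was lower in 5 of 5 WT livers as well, with a mean difference of -353 ± 167 bp (SD, n = 5). Against the 522 regions with a peak in 2 or 3 nodules the differences were -3.39 ± 2.11 percentile points, lower in 5 of 5 animals, and -92.7 ± 78.3 bp, lower in 4 of 5. The nodule lists chose these sets and, with the other lists, set how far each region reaches. An animal's percentile at a region is that of its best peak there, and its length is the sum over its peaks. Both can therefore rise with the width of a region, and the part of width in these differences was not tested. No test is given because the sets were chosen with results known. The quartiles of the sets overlapped widely in every WT animal. With single animals left out and the thresholds loosened to 3 of 4, the percentile difference was -1.71 without nodule 124711, -2.66 without 125278, -2.95 without 123390 and -7.39 without WT animal 134501. The difference in length was -127 bp without nodule 124711.

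**Figure D3:**
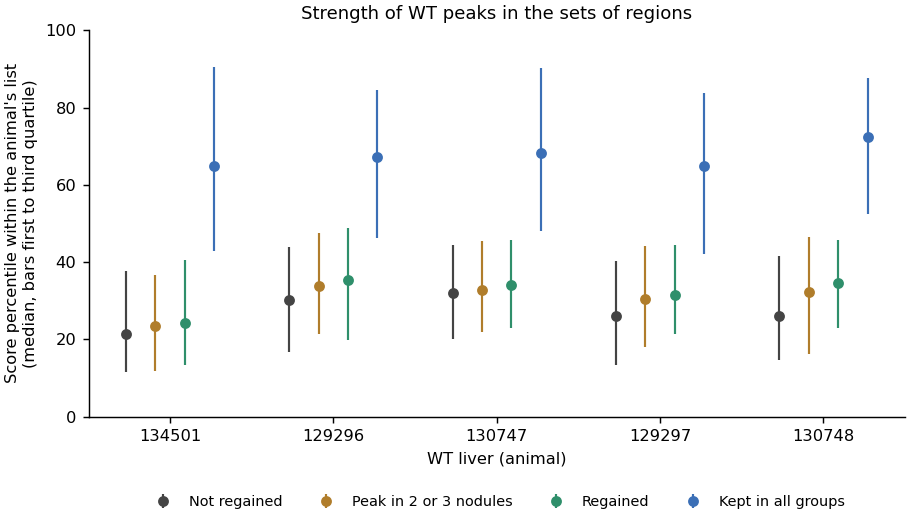
Score percentile of WT peaks within each animal's list (points, medians; bars, interquartile range) for regions not regained, with a peak in 2 or 3 nodules, regained, or kept in all groups, in each of 5 WT livers. The 3 lost sets lie between 21.4 and 35.5, with the regions not regained lowest in every animal, and the kept set lies above 64 in all 5.

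Width followed the same order. The 475 regions had a median width of 3548 bp (range 1319 to 15883), the regions with a peak in 2 or 3 nodules 4127 bp, the regained 4989 bp and all regions with at least 4 WT peaks 6124 bp. A wider region has more bases on which any animal's peak can fall, so width and the count of animals are linked by the way regions are built. Just inside the nodule limit, the 291 regions with 1 nodule peak had a median WT percentile of 28.1, and just outside it the 333 with 2 had 31.3. At the inflamed limit the values were 33.2 inside (140 regions with 1 peak) and 31.4 outside (94 with 2). At the WT limit they were 26.5 inside (353 regions with 4) and 18.7 outside (555 with 3).

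The 10 regions with the firmest WT peaks among the 33 with no mutant peak were ranked by their lowest WT percentile. The first lay on chromosome 11 from 3945929 to 3949773. Its peak covered 3726 bp in WT animal 134501, 3808 bp in 129296, 3570 bp in 130747, 3349 bp in 129297 and 3778 bp in 130748, a mean of 3646 ± 190 bp (SD, n = 5), and its percentiles ran from 61.4 to 77.2. The 10 mutant animals had no peak there, and their nearest peaks lay between 5.21 kb and 8.76 kb away. The fifth of the 10 regions was its neighbour, 1.84 kb downstream by coordinate on chromosome 11 from 3951618 to 3955855, with 3300 to 4238 bp under peaks in the WT livers. From the start of the first to the end of its neighbour is 9.93 kb, including the 1.84 kb between them where no animal had a peak listed, and a region shared by all 15 animals lay 5.21 kb away.

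The second region, on chromosome 2 from 73452824 to 73456884, had 4061 bp under a peak in 134501, 3313 bp in 129296, 3452 bp in 130747, 3410 bp in 129297 and 2588 bp in 130748, with percentiles of 56.3 to 79.2. The third, on chromosome 12 from 109564657 to 109568192, had 2723 to 3333 bp, and 9 of the 10 mutant animals had a peak within 2.72 kb of it. Nodule 123390 was the exception, with its nearest peak 48.7 kb away. A region kept in all groups lay 1.66 kb from it.

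The fourth region, on chromosome 15 from 87059389 to 87065731, lay 37.1 kb from another of the 475 and far from any mutant peak. The WT livers had 6343, 5556, 5678, 4653 and 2528 bp under peaks there, in the order 134501, 129296, 130747, 129297, 130748. The nearest mutant peak was 84.6 kb away and the nearest region shared by all 15 animals was 799 kb away. The sixth, on chromosome 18 from 39548467 to 39558428, was the widest of the 10, with 8883 to 9404 bp in 4 WT livers and 4990 bp in 134501. The seventh, on chromosome 18 from 81393761 to 81399152, reached percentile 99.4 in 134501, just above the block of tied scores, and 40.5 to 62.8 in the other 4.

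The last 3 of the 10 had lower WT percentiles. The eighth, on chromosome 1 from 194653186 to 194662158, had 8973 bp in 134501 and 3559 to 7366 bp in the other WT livers. The ninth, on chromosome 4 from 105020137 to 105023679, had 2467 to 3456 bp, and the tenth, on chromosome 5 from 97072899 to 97077565, had 2569 to 4550 bp. By the tenth region the lowest WT percentile was 22.7, so the set of regions that were both strong in all 5 WT livers and without a mutant peak was small.

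**Figure D4:**
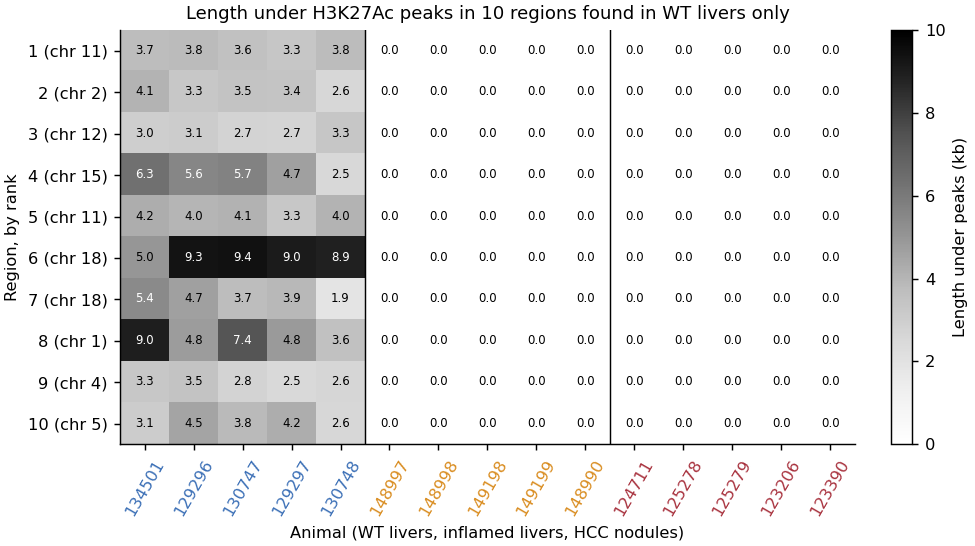
Length in kb under H3K27Ac peaks (shade and printed value) in 15 animals at the 10 regions with a peak in all 5 WT livers, none in the mutant animals and the highest of the lowest WT percentiles; ranks run from top to bottom. WT livers range from 1896 to 9404 bp, and all inflamed livers and nodules are at 0.

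Only 3 of the 475 regions had a median WT percentile of at least 80, and they were singled out after their values were seen. The region on chromosome 9 from 102303442 to 102315095 had 3295 bp under peaks in 134501 and 10058, 11494, 11346 and 10429 bp in 129296, 130747, 129297 and 130748, with no peak in any mutant animal. The region on chromosome 5 from 146181664 to 146196866 had 15004, 14549 and 14699 bp in 129296, 130747 and 129297, 1613 bp in 130748 and none in 134501. Nodule 123390 had 14152 bp there, nearly the WT extent, and no other mutant animal had a peak. The region on chromosome 10 from 33500806 to 33512454 repeated that arrangement: 9767, 9576 and 9200 bp in the same 3 WT livers, 1189 bp in 130748, none in 134501, and 11649 bp in nodule 123390. At these last 2 regions WT animal 134501 had no peak, as was so in 9 of the 10 mutant animals.

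The 2 other widest regions were weaker. On chromosome 5 from 66412895 to 66428777 the WT livers had 4473 to 8627 bp under peaks and nodule 123390 had 13791 bp, more than any WT liver. On chromosome 2 from 103560570 to 103572274 the WT livers had 3014 to 11656 bp, inflamed animal 148990 had 2589 bp and nodule 124711 had 2963 bp.

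Neighbouring regions that were not themselves lost differed between inflamed and WT livers by less than the spread between WT animals in how many had a peak, and the mean length under peaks was lower in inflamed livers with overlapping ranges. Within 20 kb of the 475 regions lay 849 others, of which 313 (36.9%) were kept in all groups and 220 (25.9%) had a peak in all 15 animals. The 34 that were lost in inflammation but present in 2 to 5 nodules were left out of the following shares, which favours presence in the inflamed livers by construction, and 815 remained. A peak was listed at 57.1 ± 3.96% of them in WT livers, 58.1 ± 1.09% in inflamed livers and 52.3 ± 8.29% in nodules (SD, n = 5 each). The WT range, 53.7 to 62.0%, enclosed that of the inflamed livers, 56.2 to 59.0%, and the nodules spread from 42.2 to 60.7%. The length under peaks in these 815 regions was 2829 ± 397 kb in WT livers, 2357 ± 134 kb in inflamed livers and 2367 ± 513 kb in nodules (SD, n = 5 each), and the WT range of 2288 to 3333 kb overlapped the inflamed range of 2171 to 2505 kb. Around the regions with a peak in all 15 animals the order was the opposite, with 16416 ± 2695 kb in WT livers and 22254 ± 1837 kb in inflamed livers. Those neighbours exclude every region with a peak in all 15 animals, whereas the 815 include 220 of them, so the neighbours compared are unlike in kind. Over all regions of the series the shares were 41.8%, 55.6% and 49.5%. Around the 120 regained regions the nodules had a peak at 64.5 ± 6.42% of 277 neighbours, and the WT and inflamed livers at 59.6% and 61.2%.

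Coverage by peaks was also followed with distance from the centres, where the choice of regions sets the values. At the centres of the 475 regions 80.5% were under a peak in WT livers, 5.18% in inflamed livers and 10.8% in nodules. At 5 to 20 kb the values were 14.1%, 10.6% and 10.7%, and at 20 to 50 kb they were 12.6%, 10.6% and 10.7%. The means of the flanks too were lower in both mutant groups, but these means carry no spread between animals. For 76 of the 475 regions another of the 475, also chosen for its WT peaks, lay within 50 kb. The part of such regions in the flank means was not tested. Around the regions kept in all groups the values were 17.5%, 17.7% and 18.9% at 5 to 20 kb and 15.6%, 16.3% and 17.0% at 20 to 50 kb. In mutant animals without a peak in a region, the nearest peak lay at a median of 12.7 to 13.5 kb in inflamed livers and 13.2 to 19.5 kb in nodules. In WT livers without a peak in a region it lay at 14.1 to 25.1 kb, over 5 to 197 regions per animal.

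**Figure D5:**
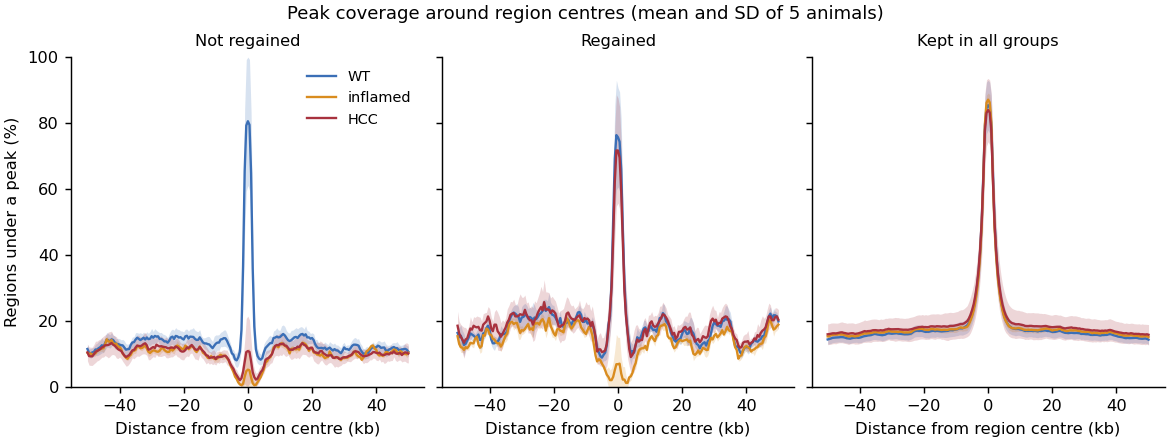
Percent of regions under a peak against distance from the region centre in kb, as the mean (line) and SD (shade) of 5 animals per group, for regions not regained, regained and kept. At the centre of the regions not regained the WT line reaches 80.5%, the inflamed line 5.18% and the HCC line 10.8%, and from 5 to 50 kb the 3 groups average between 10.6% and 14.1%.

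By median distance, the regions not regained lay farther from constant elements than the other lost regions. Their median distance to a region with a peak in all 15 animals was 36.2 kb, against 14.9 kb for regions with a peak in 2 or 3 nodules, 10.6 kb for regained regions and 19.8 kb for all regions with at least 4 WT peaks. Such a region was within 20 kb of 38.9%, 56.3%, 62.5% and 50.2% of them, respectively. The nodule lists define both the sets of lost regions and the regions with a peak in all 15 animals. The order is therefore a description, and the part of that shared choice in it was not tested.

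Along the genome, chromosome 4 held the most, with 49 of the 475 (10.3%), which was 3.58% of its regions with at least 4 WT peaks, against 2.35% over all chromosomes. Chromosome 6 held 40 (3.29%), and chromosomes 13, 15 and 18 held 13 each (1.38%, 1.53% and 2.02%). Of the regions lost in inflammation, 55.4% were not regained on chromosome 9 and 25.4% on chromosome 16. Most regions stood alone: 399 had no other within 50 kb and 76 (16.0%) fell into 36 clusters.

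The largest cluster had 4 regions on chromosome 1 between 59450400 and 59476893, a span of 26.5 kb that held no other region. All 4 had a peak in WT animals 134501, 129296, 130747 and 129297, and 1 had a peak in 130748. Inflamed animal 148990 had a peak at 2 of them (1839 and 2469 bp) and nodule 125278 at 1 (1541 bp). On chromosome 12 between 73794105 and 73846117 lay 3 regions that had no inflamed peak and the same single nodule peak, in 123390, of 2076, 2607 and 2101 bp. On chromosome 18 between 81387136 and 81439448 lay 3 more, including the seventh region described above, where nodule 125279 had the one mutant peak (2101 bp).

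The 5-Mb windows richest in these regions were on chromosomes 12 and 4. The window from 73794105 on chromosome 12 held 10 among 67 regions with at least 4 WT peaks (14.9%), and that from 57172304 on chromosome 4 held 10 among 60 (16.7%). In the chromosome 4 window WT animal 130748 had a peak at 4 of the 10 regions and inflamed animal 148990 at 4, and the only nodule with any was 125278, at 2. Other regions of that window still had peaks in the mutant animals. Of all 174 regions, the 10 included, 77 to 89 had one in the inflamed livers and 41 to 87 in the nodules. The WT livers had one at 57 to 99, a count that includes the regions chosen for their WT peaks. These windows were found by searching the genome and carry no test.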

How the data were processed

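H3K27Ac ChIP-seq peak lists of 15 animals were analysed. Per the labels, immunoprecipitation used 5 µg of antibody, and single-end reads of 36 bp were mapped. Bowtie 0.12.7, MACS 1.4 and mm9 are named in the submitters' processing notes. The deposited score of each peak, made by the authors' caller, has no stated scale and was used only as a rank within its list. Deposited coordinates were used as given. Peaks were called per animal. Control and filters of the caller were not given in the sources used here.

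Overlapping or adjoining peaks on chromosomes 1 to 19 were merged (Python 3.11.15, NumPy 2.4.6), and an animal had a peak in a region at 1 bp of overlap or more. The calling was tested on simulated data. Regions described singly were those with 5 WT and no mutant peaks and the highest lowest WT percentile (10), the widest (3), the largest clusters and windows, and a few named as chosen after their values were seen. The members and lists were chosen with earlier results of these data known, so no p-value is given. The IgG control was not analysed here.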

Additional observations from a re-analysis of the deposited data

Results flagged for a closer look

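In groups of 5 animals, an animal was marked when its gap to the nearest other was large for the range of its group (Dixon's criterion), which chance gives in about 1 of 20 groups and which was met in 2 of 17 groups examined. Inflamed animal 148990 had the lowest share of neighbouring regions with a peak, 56.2%, against 58.3 to 59.0% in the others. Nodule 125279 had the shortest median distance from a region without a peak to its nearest peak, 13.2 kb, against 18.1 to 19.5 kb in the other nodules. Outside the chromosomes examined, chromosome X held 10 regions of the same pattern among 16 lost in inflammation (62.5%). Those 10 were among 1324 regions of chromosome X, 439 of them with at least 4 WT peaks. On chromosomes 1 to 19 there were 475 among 1117 lost in inflammation (42.5%). Those 475 were among 55617 regions, 20174 of them with at least 4 WT peaks. The 62.5% on chromosome X rests on 16 regions and was not tested against the other chromosomes.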

How the results depend on the processing

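The 475 regions depend on how presence is called. The difference between regions not regained and regained kept its sign in every setting tried. All settings reuse the same lists, so they are not separate support for that sign. Settings with merged regions also keep the link to region width, whose part was not tested. With the best 50% of each list, 253 regions were not regained and 61 regained, differing by -1190 bp; 16 of the 475 were shared. With lists cut to equal length the values were 1139, 244, 47.9% of lost regions, -9.24 percentile points and -596 bp; the count of all gains and losses under this setting was added after seeing the data. With a peak required over at least 50% of a region they were 820, 263, -27.1 points and -2384 bp. Bins of 1000 bp gave 4188, 1807, 37.1% and -13.0 points, with 51.0% of those bins inside regions kept in all groups. Requiring 5 WT and 0 inflamed livers, with 0 nodules for not regained and 5 for regained, gave 33, 6, 14.7% and -1879 bp. Without both animals WT 130748 and nodule 124711 the values were 1031, 378, 53.6% and -128 bp. The paper removed some samples as outliers from its principal component analysis of these H3K27Ac data. Its main text does not name them, so whether WT 130748 or nodule 124711 was among them is not known here. No animal was left out of the count of 475.

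Leaving out 1 animal at a time loosens the thresholds to 3 of 4 and 1 of 4, and gave 488 to 940 regions not regained, 125 to 235 regained, 39.7 to 66.1% of lost regions, differences of -7.39 to -1.71 percentile points and -463 to -127 bp. A region that met the limits with all animals also meets these, unless its borders change. The rise of both counts was therefore largely set by the looser limits. The count passed 1.5 times the reported one without WT 130748 (940), WT 134501 (919), nodule 125278 (741) and nodule 123390 (713), and the percent not regained did so without nodule 125278 (66.1%). No paired analysis was possible because the groups share no animals and no test was made.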
